A study of Mus musculus with 11 samples.

Results

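Amd1 and Amd2 encode S-adenosylmethionine decarboxylase in the mouse, and they were followed here with 6 other polyamine genes, Odc1, Srm, Sms, Sat1, Oaz1 and Azin1. The members were taken by symbol, 8 of the 24411 genes in the files. The set was selected on the expected counts of Amd1 and Amd2, RSEM's estimates of the reads from each gene, because these divided between the pair differently from sample to sample. That division is therefore described below and not tested.

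The 11 samples were back skin of irradiated mice that carried the EGFP transgene Tg(act-EGFP)Y01Osb, given in the labels as aged 16-18 with no unit. Hosts received 10 Gy and then femoral marrow cells sorted from donor mice of the Pdgfra-Cre;tdTomato cross. In such donors Cre under Pdgfra control marks cells of the Pdgfra lineage with the red fluorescent protein tdTomato. The donor cells were tdTomato-negative for 7 samples and tdTomato-positive for 4. After 6 weeks both groups had MC903 (calcipotriol), a vitamin D analog that induces an atopic dermatitis-like inflammation, put on the back skin 6 times, and skin was collected on day 14. Both groups therefore share the irradiation, the graft and the MC903, and no untreated skin was analysed here. The host keeps its own skin cells, so the donor cells are only a part of each sample. The labels do not say that each sample came from its own mouse, so p-values measure only the scatter among the samples, which may be technical.

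Polyamines are small, positively charged molecules that bind nucleic acids and are needed for growth, and skin and hair follicles are a classic setting for their study. Ornithine decarboxylase (Odc1) makes putrescine, and S-adenosylmethionine decarboxylase supplies the aminopropyl groups that spermidine synthase (Srm) and spermine synthase (Sms) add to it in turn. Spermidine/spermine acetyltransferase (Sat1) starts their breakdown and export. Antizyme (Oaz1), whose translation is raised by polyamines, sends ornithine decarboxylase to the proteasome, and antizyme inhibitor (Azin1) binds antizyme in its place.

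Amd1 and Amd2 lie on the minus strand of chromosome 10 (GRCm38, GENCODE M21), 4575565 bases apart. Amd1 spans chr10:40287458-40302186 in 8 exons, and Amd2 spans chr10:35708675-35711892 in 1 exon. Of 3204 aligned transcript bases, 3190 (99.6%) were the same in both. The annotation behind the deposited files may differ, since its lengths were 3206 and 3197 bases where GENCODE gave 3204 and 3218. Inside the aligned ends there were 10 substitutions, of which 1 lay in the 5′ UTR, 1 in the coding sequence and 8 in the 3′ UTR, and Amd2 had 4 additional bases in its 5′ UTR. The coding sequence was 1005 bases long in both, stop codon included. Its 1 substitution was G1124C, with positions counted from 1 at the 5′ end of the Amd1 transcript and the base of Amd1 given first. The sequences around it are printed because they are the only coding stretch in which a read can tell the pair apart. The capital marks the substituted base in Amd1 (chr10:40290156-40290216, minus strand) and Amd2 (chr10:35710734-35710794, minus strand).
Amd1: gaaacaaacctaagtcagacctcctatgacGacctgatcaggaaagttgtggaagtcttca
Amd2: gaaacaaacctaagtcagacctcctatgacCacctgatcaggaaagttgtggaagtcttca

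The exon junctions of Amd1 are printed next, by the example of the first one in the coding sequence, because a read across a junction usually marks a spliced gene. All 7 junctions of Amd1, read as 60 bases across each, were present letter for letter in the single exon of Amd2. The capitals mark the bases on either side of the junction in Amd1 (chr10:40301749-40301778 joined to chr10:40294774-40294803) and the same bases in Amd2 (chr10:35711420-35711479).
Amd1: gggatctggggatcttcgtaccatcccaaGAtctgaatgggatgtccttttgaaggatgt
Amd2: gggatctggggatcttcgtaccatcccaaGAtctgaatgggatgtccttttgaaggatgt

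**Figure D1:**
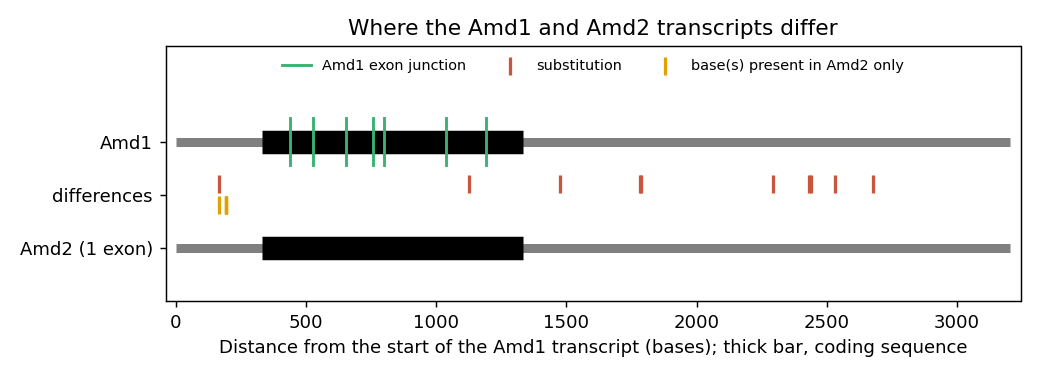
The Amd1 transcript (upper bar) and the Amd2 transcript (lower bar) along the distance from the Amd1 transcript's start in bases, with the coding sequence as the thick part, the 7 exon junctions of Amd1 in green, the 10 substitutions in red and the bases present in Amd2 alone in yellow. The longest run with no difference is 930 bases, and 1 substitution lies in the coding sequence.

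Of all stretches of 75 bases in the Amd1 transcript, 79.6% were found unchanged in Amd2. The share was 54.0% for stretches of 200 bases, and the fragments sequenced averaged 207 to 232 bases per library, as the difference between the deposited lengths and effective lengths gives it. A read from such a stretch matches both genes, and RSEM divides such reads by estimate, so the expected counts of Amd1 and Amd2 apart are uncertain and the group tests reported below used their sum. Of the other members, 47.5% of the 75-base stretches of Oaz1 were shared with Oaz1-ps, which was at 0 in all 11 samples. The share with any other gene in the files was 0.84% for Odc1, 0.77% for Sms and 0% for Srm, Sat1 and Azin1. Against all genes of GENCODE M21, also those outside the files, it was 30.5% for Odc1, 28.2% for Sms, 2.67% for Sat1 and 0% for Srm and Azin1. Amd1 shared 27.35% of its stretches with the pseudogene Amd-ps3 and 20.45% with Amd-ps4. For Amd2 these shares were 24.84% and 20.36%. GENCODE M21 lists 5 Amd pseudogenes and the files hold 0 of them, so adding Amd1 and Amd2 does not settle these stretches. How reads from those stretches were assigned was not tested.

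The sequence before the 2 genes is printed because, unlike the transcripts, it had little in common between the pair. The 120 bases before each start (RefSeq, GRCm38.p6, minus strand) are given 5′ to 3′ for Amd1 (chr10:40302189-40302308) and Amd2 (chr10:35711892-35712011). The capitals mark TATAA on either strand.
Amd1: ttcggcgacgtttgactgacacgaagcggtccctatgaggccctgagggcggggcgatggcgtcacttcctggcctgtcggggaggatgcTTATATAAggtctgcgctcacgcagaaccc
Amd2: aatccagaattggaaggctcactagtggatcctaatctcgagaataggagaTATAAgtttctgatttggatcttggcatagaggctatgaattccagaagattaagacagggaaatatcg

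TATAA stood 27 bases before the start of Amd1, overlapping a match on the other strand, and 69 bases before that of Amd2. Of 32851 promoter windows of this length, 11.8% held the motif on either strand. The Amd1 window had 11 CG steps and the Amd2 window had 2, beside a median of 3 over all windows. At least 11 CG steps were present in 20.2% of windows, and at most 2 in 45.0%. Over 250 bases before the start the pair shared 0 words of 12 bases. These matches are a description of the letters.

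Amd1 was listed at 0 in 6 of the 7 negative samples and above 0 in negative replicate 4 and all 4 positive samples. Its expected count was 661 in negative replicate 4. In positive replicates 1 to 4 it was 660, 332, 663 and 330. Of the 5 values above 0, 3 lay between 660 and 663 and the other 2 at 330 and 332. These counts are not scaled to depth. On the TPM scale, which is scaled to each sample's total, Amd1 was at 40.56 in negative replicate 4. In positive replicates 1 to 4 it was at 41.65, 21.48, 37.23 and 23.9 TPM. The 3 higher values thus lay less close together than in the counts, though still above the other 2. Whether the 5 values form 2 levels was not tested.

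Amd2 was mostly higher where Amd1 was at 0. Its expected count was 840, 875, 642, 282, 843, 816 and 1028 in negative replicates 1 to 7. In positive replicates 1 to 4 it was 344, 500, 417 and 662. The lowest value of all stood in negative replicate 4, the negative sample with Amd1 reads, and the only overlap was that positive replicate 4 lay above negative replicate 3.

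The sum of both rows was far more even. It was 840, 875, 642, 943, 843, 816 and 1028 in negative replicates 1 to 7 and 1004, 832, 1080 and 992 in positive replicates 1 to 4. The sum was a whole number in all 11 samples, within 0.005, while Amd1 itself was not whole in any of the 5 samples where it was above 0. Scaled to each sample's total, the coefficient of variation over the 11 samples was 121% for Amd1, 40.8% for Amd2 and 13.8% for the sum.

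As a share of the sum, Amd1 made up 70.1% in negative replicate 4. In positive replicates 1 to 4 it made up 65.7%, 39.9%, 61.4% and 33.3%. In the 6 samples at 0, a floor of 3 reads would allow a share of at most 0.292% to 0.467%, a limit for counting error only, which leaves out how RSEM divides reads. The shares on the TPM scale, which divides by effective length, were 70.0%, 65.6%, 39.8%, 61.3% and 33.2% in the same 5 samples, since the deposited lengths of the pair were nearly equal at 3206 and 3197 bases.

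**Figure D2:**
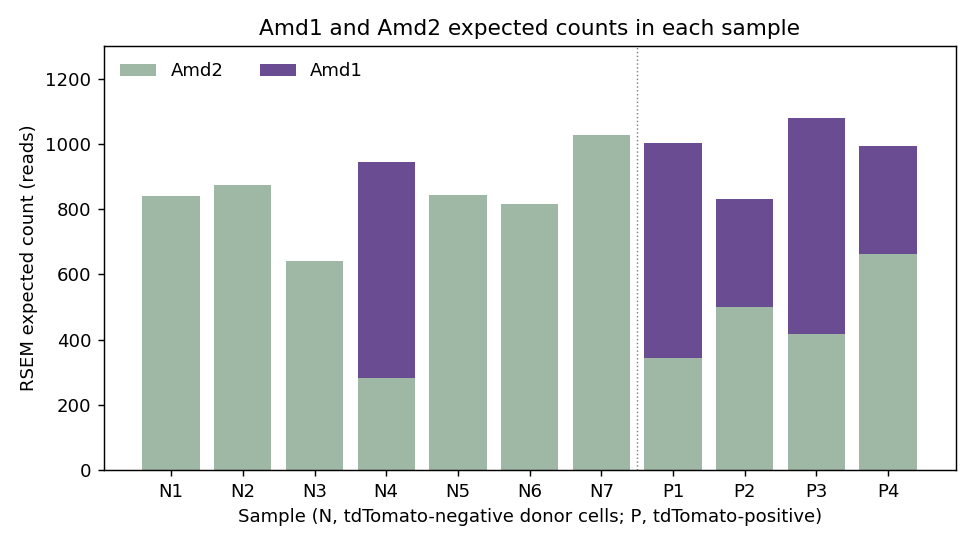
Expected counts of Amd1 and Amd2 stacked in each of the 11 samples, 7 negative (N) and 4 positive (P). Amd1 is at 0 in 6 bars and takes 33.3% to 70.1% of the other 5, while the height of the stack runs from 642 to 1080.

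The number of other rows at 0 in some samples and high in others is given as a description, since Amd1 was selected on these values. Of 10787 rows that reached an expected count of 100 in some sample, 34 (0.315%) were at 0 in at least 1 other sample. The 5 highest were Krtap19-5, a hair keratin-associated protein, at 801, Amd1 at 663, the chemokine Ccl21a at 584, Dmbt1 at 541 and the hemoglobin gene Hba-a2 at 424. They were at 0 in 1, 6, 1, 3 and 2 samples in that order. Only 3 of the 34 were at 0 in 6 or more samples, Amd1, Gm1987 and Lypd8, and they were looked up after their values were seen. The count covers single rows and does not say whether reads were divided between similar genes.

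The comparison of marrow groups asks which genes differed in skin according to the Pdgfra lineage of the grafted cells. It was run with edgeR's quasi-likelihood test on all 14587 genes that passed a filter on low counts, with Amd1 and Amd2 as 1 gene, and all 7 resulting polyamine members passed that filter. Total expected counts were 7190752 to 9749842 per sample. No gene had a Benjamini-Hochberg adjusted p under 0.05 in edgeR's quasi-likelihood test (0%), while 2449 genes (16.8%) had an unadjusted p under 0.05. DESeq2 called 68 genes (0.495%). Keratinocyte markers took 1.74% to 3.996% of counts in the negative samples and 2.61% to 3.90% in the positive, and no marker list had a gene at 0 in all samples. The 25 markers of growing hair follicles took 0.0465% to 5.14% of counts in the negative samples and 0.0640% to 1.63% in the positive, and all 25 had a log2 difference below 0. All 12 macrophage markers had one above 0, with 0.0701% to 0.119% of counts in the negative and 0.0825% to 0.235% in the positive samples. Some other lists were as uniform, with all 6 melanocyte markers below 0. All 8 fibroblast, 7 tested T cell, 6 neutrophil, 6 endothelium and 6 skeletal muscle markers were above 0. The remaining lists were mixed, with 6 keratinocyte markers above 0 and 2 below. For cell cycle markers it was 7 above and 11 below, and for adipocyte markers 5 and 1. Sebaceous gland and erythroid markers each had 3 above and 3 below. In skin as a whole, fewer cells of a type and less RNA per cell cannot be told apart. What part tissue makeup had in the differences below was not tested. Fits with the hair or cell cycle score as a covariate are given as a description. The hair score came from the same counts, and all 25 of its markers had a log2 difference below 0. Its fit therefore cannot fully separate group from hair content.

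Of the 7 members, 0 passed the threshold, as did 0% of all genes, and 1 (Srm) had an unadjusted p under 0.05, beside 16.8% of all genes. By edgeR's quasi-likelihood test with Benjamini-Hochberg adjustment, the adjusted p of the 7 ran from 0.266 (Srm) through 0.386 (Sat1), 0.606 (Odc1), 0.643 (the Amd1 and Amd2 sum), 0.690 (Oaz1) and 0.802 (Sms) to 0.852 (Azin1). All 7 had groups that overlapped, beside 1.67% of genes whose groups did not. Levels between samples are given here as CPM, counts scaled to the library size, for which means are with SD.

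The Amd1 and Amd2 sum, the supply of aminopropyl groups, was 125, 106, 111 and 134 CPM in positive replicates 1 to 4. In the 7 negative samples it ran from 86.5 through a median of 109 to 137 CPM. The groups overlapped over most of their range, and the highest value of all belonged to negative replicate 7. Positive samples averaged 119 ± 12.8 CPM (SD, n = 4). Negative samples averaged 110 ± 16.3 CPM (SD, n = 7). On the log2 scale the fold change was 0.11 ± 0.12 (SE, 95% interval -0.15 to 0.36).

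Odc1, the enzyme that makes putrescine, stood at 180, 93.9, 81.3 and 133 CPM in the 4 positive samples (replicates 1 to 4). The negative samples ran from 79.9 through 105 to 123 CPM. Positive replicates 1 and 4 were above every negative sample, and positive replicates 2 and 3 were below the negative median. Its log2 fold change was 0.20 ± 0.19 (SE, 95% interval -0.22 to 0.62), and 1 library set its sign, since it was -0.05 without positive replicate 1. That library also had the highest macrophage score, the mean z-score of the marker list, at 2.17, while the 7 negative samples lay between -1.15 and 0.27. Of the 11 samples it had also the highest neutrophil score, at 1.73, and the lowest melanocyte score, at -1.55, and its fibroblast score of 1.14 was exceeded only in negative replicate 1. Positive replicate 4, also above every negative sample in Odc1, had a macrophage score of -0.17 and a neutrophil score of 0.31. Positive replicate 2, with Odc1 below the negative median, had a macrophage score of 1.10. The part of these scores in the Odc1 level was not tested.

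Srm, which turns putrescine into spermidine, was at 18.9, 15.6, 14.3 and 17.0 CPM in the 4 positive samples (replicates 1 to 4). In the negative samples it ran from 16.2 through 20.0 to 21.96 CPM. Positive replicates 2 and 3 lay below all negative samples, and the other 2 lay within their range. For Srm the log2 fold change was -0.27 ± 0.11 (SE, 95% interval -0.50 to -0.03), with an unadjusted p of 0.0298 in edgeR that did not hold after adjustment. With the hair score as a covariate it was -0.26, with an unadjusted p of 0.0608 and an adjusted p of 0.664 in edgeR.

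Sms, which turns spermidine into spermine, was at 18.8, 18.4, 20.96 and 22.8 CPM in the 4 positive samples (replicates 1 to 4). The negative samples ran from 14.6 through 19.9 to 22.7 CPM. All but the highest positive sample lay inside the negative range, and the log2 fold change was 0.07 ± 0.12 (SE, 95% interval -0.20 to 0.33).

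Sat1, the acetyltransferase of polyamine breakdown, was at 165, 137, 91.3 and 131 CPM in the 4 positive samples (replicates 1 to 4). The negative samples ran from 86.6 through 110 to 135 CPM. Positive replicates 1 and 2 lay above all negative samples, and positive replicate 3 lay near the bottom of their range. The log2 fold change was 0.25 ± 0.15 (SE, 95% interval -0.07 to 0.58). It was 0.12 without positive replicate 1 and 0.40 without positive replicate 3. The macrophage score of positive replicate 2 was 1.10, the next highest after positive replicate 1, and so was its neutrophil score of 0.88. It had the highest T cell and endothelium scores, at 1.2 and 1.16. Negative replicate 2 and positive replicate 4 had Sat1 at 135 and 131 CPM, with macrophage scores of -0.32 and -0.17. Their neutrophil scores were 0.62 and 0.31. The part of these scores in the Sat1 level was not tested.

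Oaz1, the antizyme, was at 164, 170, 188 and 151 CPM in the 4 positive samples (replicates 1 to 4). The negative samples ran from 168 through 172 to 201 CPM, of which negative replicate 3 was the highest and the other 6 lay within 168 to 176. Oaz1 had the narrowest interval of the 7 members, from -0.23 to 0.11 around a log2 fold change of -0.06 ± 0.08 (SE).

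Azin1, the antizyme inhibitor, was at 101, 79.7, 60.9 and 102 CPM in the 4 positive samples (replicates 1 to 4). In the negative samples it ran from 64.5 through 98.5 to 106 CPM. The low samples were positive replicate 3 and negative replicates 7 and 1, and the groups overlapped. These 3 had hair scores of -1.05, -1.51 and -0.49, and the hair score of the other negative samples was 0.73 to 1.16. Positive replicates 1 and 2 had hair scores of -0.55 and -1.28. The log2 fold change was -0.07 ± 0.18 (SE, 95% interval -0.46 to 0.31), and it was 0.20 with the hair score as a covariate and 0.07 without positive replicate 3.

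**Figure D3:**
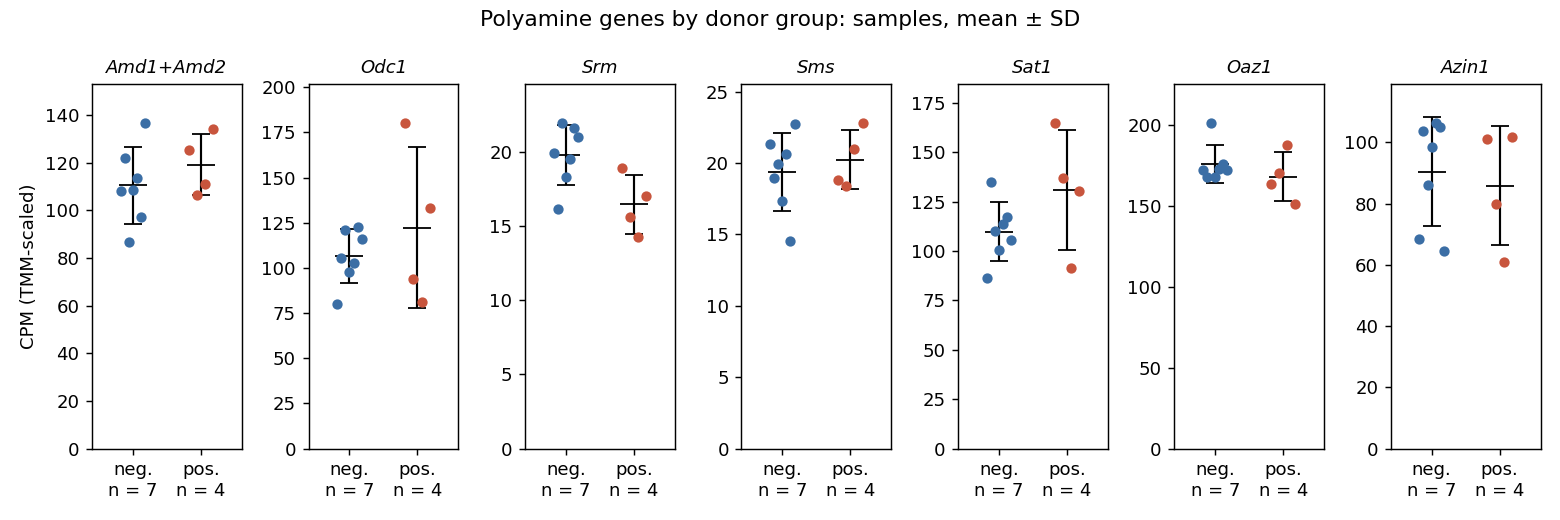
CPM of the 7 members, with Amd1 and Amd2 summed, as 1 point per sample in the 7 negative and 4 positive samples, with the mean and SD of each group. The groups overlap in all 7 panels, and the widest spread is that of Odc1 in the positive samples, from 81.3 to 180 CPM.

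**Figure D4:**
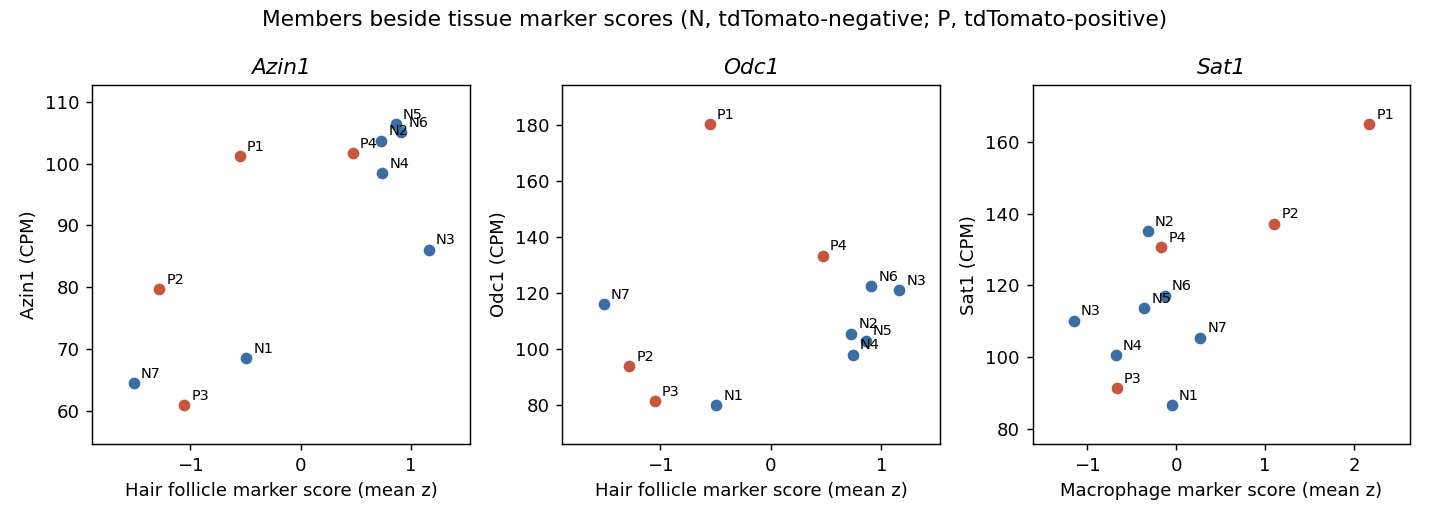
CPM of Azin1 and Odc1 against the hair follicle score (left and middle) and of Sat1 against the macrophage score (right). Scores are mean z-scores of log2 CPM over each marker list. Each sample is 1 point, labelled by group (N, negative and P, positive) and replicate. The lowest Azin1, at 60.9 CPM, is that of positive replicate 3, with a hair score of -1.05. Positive replicate 1 has the highest Odc1 and Sat1, at 180 and 165 CPM. Its hair score is -0.55, and its macrophage score of 2.17 is the highest.

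Levels were compared between members on the TPM scale, which is per length. Oaz1 was the highest with a median of 307 TPM over the 11 samples (283 to 357), followed by Sat1 with 181 TPM (146 to 265). Odc1 had a median of 68.3 TPM (55.5 to 117) and the Amd1 and Amd2 sum had 58.7 TPM (41.8 to 75.3). Azin1 had 32.6 TPM (21.1 to 34.7), Srm 26.4 TPM (21 to 30.9) and Sms 9.07 TPM (6.83 to 11.8). Odc1 was above the Amd1 and Amd2 sum in 9 of 11 samples and Azin1 above Srm in 8 of 11, and the ranges of these neighbours overlapped. Within a sample, the sum stood at 54.0% (positive replicate 1) to 107% (positive replicate 3) of Odc1. Differences within samples were not tested. All other neighbours in the order had ranges that did not overlap.

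Odc1 and its antizyme Oaz1 were also set against each other in each sample on the TPM scale. Odc1 stood at 40.2% of Oaz1 in positive replicate 1 and at 32.4% in positive replicate 4. It stood at 16.0% in positive replicate 3, the lowest of all 11, and at 17.3% to 25.4% in the negative samples. The positive samples thus held both ends of the range.

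By the Pearson correlation of log2 CPM over the 11 samples, with 13826 genes compared and no p, the named genes most like the Amd1 and Amd2 sum were Fer (0.922), Perp (0.906), Ggnbp2 (0.895), Mterf2 (0.885) and Fxr1 (0.878). Those most like Odc1 were Pdk1 (0.903), March5 (0.893), Mt1 (0.893), Patl1 (0.880) and Stc1 (0.865). The samples share a tissue whose makeup varied and their own depths, and these values are a description of the 11 libraries.

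Other genes of the pathway were taken from 8 lists with 55 symbols, all found in the files, of which 46 were tested. Of the 46, 0 passed the threshold, beside 0% of all genes, and 12 (3 higher, 9 lower in the positive samples) had an unadjusted p under 0.05, beside 9.73% of all genes lower and 7.05% higher. The log2 fold change was above 0 for 17 and below 0 for 29, with a median of -0.11 beside -0.01 over all genes. Of all genes tested, 48.6% were above 0, which is the share to set beside the counts by list below. In the limma voom fit with sample quality weights 8 of the 46 passed, all lower in the positive samples, beside 14.3% of all genes in either direction and 7.62% lower. These 8 were Atp13a2, Mat2a, Max, Mtap, Mycl, Slc3a2, Slc7a1 and Smox. With the hair score added to the edgeR fit 3 of the 46 had an unadjusted p under 0.05, beside 7.53% of all genes. These were Atp13a5 and Mat2b, which were among the 12, and Eif5a2, which was not (p 0.119 without the score and 0.0268 with it in edgeR).

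In the synthesis list 3 of 4 genes had a log2 fold change above 0, and the median was 0.09. In the catabolism list 2 of 3 were above 0. Its gene with the smallest p was Smox, the spermine oxidase, at 53.0, 40.6, 35.7 and 43.2 CPM in positive replicates 1 to 4 and from 43.4 through 57.4 to 62.1 CPM in the negative samples. The groups overlapped, and the log2 fold change was -0.34 ± 0.13 (SE), adjusted p 0.256 by edgeR's quasi-likelihood test with Benjamini-Hochberg adjustment. With the hair score as a covariate it was -0.17.

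In the antizyme list 1 of 4 genes was above 0, with Azin2, a second antizyme inhibitor, at 0.20 ± 0.13 (SE), or 0.12 in the fit that holds the hair score. In the transport list 4 of 9 were above 0. Atp13a5, a P5B-type ATPase in the family of the polyamine transporters Atp13a2 and Atp13a3, was at 4.11, 4.09, 8.73 and 5.54 CPM in the 4 positive samples (replicates 1 to 4). In the negative samples it ran from 2.42 through 3.32 to 4.60 CPM, and the groups overlapped. Positive replicate 3 was the highest of all 11. Atp13a5 had a log2 fold change of 0.76 ± 0.25 (SE), adjusted p 0.247 by edgeR's quasi-likelihood test with Benjamini-Hochberg adjustment. With the hair score as a covariate it was 0.72.

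In the list for hypusination, the modification of the translation factor eIF5A that uses spermidine, 1 of 4 genes was above 0, and Dohh, which completes it, had a log2 fold change of -0.33 ± 0.16 (SE). In the ornithine and arginine list 2 of 7 were above 0, and the smallest p was that of Oat, the ornithine aminotransferase, at -0.18 ± 0.10 (SE). With the hair score as a covariate Dohh was at -0.20 and Oat at -0.04. In the list for S-adenosylmethionine and methionine salvage 3 of 9 were above 0. Mat2b, the regulatory subunit of methionine adenosyltransferase, was at 46.5, 46.4, 44.4 and 51.9 CPM in the 4 positive samples (replicates 1 to 4). In the negative samples it ran from 36.8 through 43.0 to 43.4 CPM, so the groups did not overlap, as in 1.67% of all genes. Mat2b had a log2 fold change of 0.19 ± 0.07 (SE), adjusted p 0.256 by edgeR's quasi-likelihood test with Benjamini-Hochberg adjustment, or 0.24 in the fit that holds the hair score.

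In the MYC list, whose factor Myc is a known activator of Odc1, 1 of 6 genes was above 0. Mycl was at 17.7, 28.9, 23.7 and 39.4 CPM in the 4 positive samples (replicates 1 to 4). In the negative samples it ran from 24.5 through 49.2 to 89.3 CPM. The highest was negative replicate 3, which also had the highest hair score at 1.16. Mycl had a log2 fold change of -0.85 ± 0.32 (SE), adjusted p 0.255 by edgeR's quasi-likelihood test with Benjamini-Hochberg adjustment, and it was -0.39 with the hair score as a covariate.

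**Figure D5:**
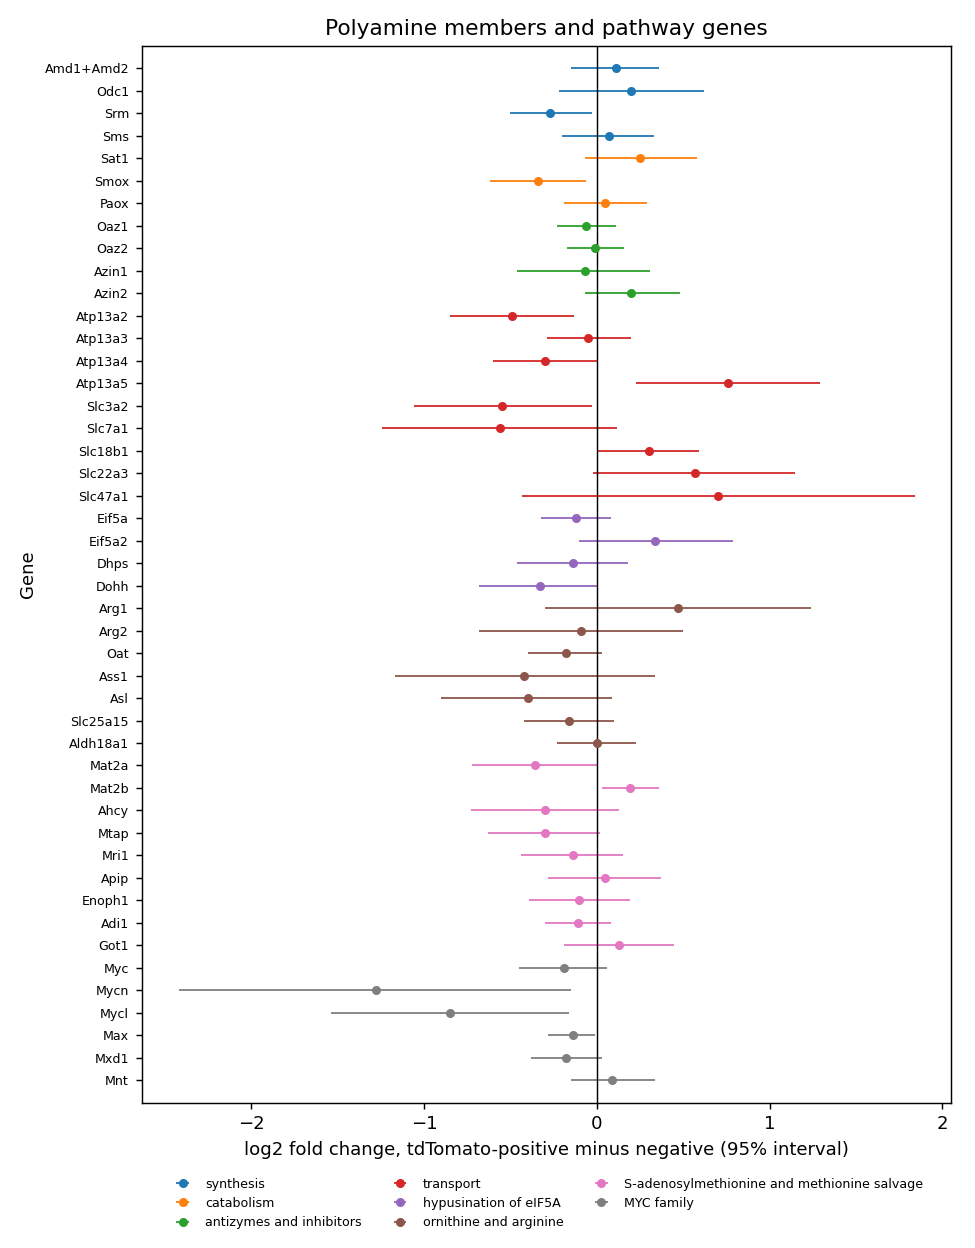
Log2 fold change, positive minus negative, of the 46 tested polyamine and pathway genes with 95% intervals, coloured by list. Intervals of most genes cross 0, 29 of 46 values lie below it, and none passes the adjusted threshold.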

How the data were processed

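Total RNA was depleted of ribosomal RNA, and libraries were made with a KAPA HyperPrep kit and read on a NextSeq2000, per the labels' protocols. GRCm38, RSEM, Trim Galore and bcl2fastq are named in the submitters' processing notes. Their versions, the aligner, the annotation and whether strand was used are not given in the sources. Per the file headers, the authors deposited RSEM's expected counts per gene, not normalized, and 7.93% to 8.53% of genes per sample were not whole numbers (tolerance 0.005). The authors also deposited TPM, scaled by effective length, and the transcript lengths deposited by the authors gave the mean fragment length.

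Expected counts were rounded to whole numbers, with Amd1 and Amd2 added first. Genes were filtered with filterByExpr (minimum count 10, minimum total 15), scaled by TMM and tested with edgeR 4.0.16 (glmQLFit in legacy mode, group as the only term, all 11 samples, R 4.3.3), with Benjamini-Hochberg adjustment over 14587 genes and a threshold of 0.05. CPM use the TMM-scaled totals. The test was also run on simulated counts in which 200 genes were changed. Genes were drawn independently there, so tissue makeup shared between genes was left out, and its outcome is not used here. Transcripts were compared in GENCODE M21 with Biopython 1.88. All members were named, and from each pathway list the gene with the smallest p. For 2 members the 5 genes most alike were named, leaving out predicted genes. The members, lists and rules were chosen with earlier results of these data known.

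Alternatives were other scaling, no filter, DESeq2 1.42.0, limma 3.58.1 voom with quality weights, version 4 quasi-likelihood mode, log2(TPM + 1) and log2(TPM + 0.1), a length offset, hair and cell cycle scores as covariates, a replicate block, leaving out each sample and separate Amd rows. No protein sequence was used here. A floor describes counting error alone, because no molecular identifiers mark the reads.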

Additional observations from a re-analysis of the deposited data

Results flagged for a closer look

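In 3 of 24 sets of values examined, 1 sample stood far from the others of its group by Dixon's 95% critical value, which chance passes in about 1 in 20 groups. Of these, 1 was bound to appear, because the genes were selected on it: the Amd1 expected count of negative replicate 4 was 661, while the other 6 negative samples were at 0. The Oaz1 level of negative replicate 3 was 201 CPM, while the other 6 lay between 168 and 176 CPM. The cell cycle score of negative replicate 1, a mean z-score over the marker list, was -2.46, while the other 6 lay between -0.06 and 0.91.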

How the results depend on the processing

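No member passed the threshold under any alternative run. Over all genes, 68 passed with DESeq2 (849 adjusted p-values were NA) and 2092 with limma voom with quality weights; leaving out 1 sample gave 0 to 3 (3 without negative replicate 7), and every other setting gave 0. Among pathway genes, 8 passed with voom with quality weights and 0 under the rest. The direction of Azin1 turned to 0.20 with the hair score as covariate and to 0.07 without positive replicate 3, and that of Odc1 to -0.05 without positive replicate 1; the cause was not tested. Log2 fold changes over all settings ran from 0.05 to 0.18 for the Amd1 and Amd2 sum, -0.22 to 0.20 for Azin1, -0.11 to -0.02 for Oaz1, -0.05 to 0.36 for Odc1, 0.12 to 0.40 for Sat1, 0 to 0.12 for Sms and -0.34 to -0.19 for Srm, whose lowest adjusted p was 0.106 (limma voom). No pairing by replicate number was seen. Same-numbered deviations correlated at -0.04, -0.14, -0.05 and 0.35, and 0 of 4 positive samples correlated best with their own number. These correlations run over all genes tested, so they cannot exclude a weaker link between same-numbered samples. With the replicate block over replicates 1 to 4, 0 genes passed, and the same samples unpaired, a setting chosen after seeing the data, also gave 0. The block gave 0.17 for the Amd1 and Amd2 sum, 0.22 for Odc1, -0.21 for Srm, 0.06 for Sms, 0.26 for Sat1, -0.08 for Oaz1 and -0.07 for Azin1. Leaving out 1 sample gave -0.17 to 0.07 for Azin1. The limits set by depth were not compared between members.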

Other observations

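Arg1, the arginase that supplies ornithine to Odc1, varied widely in both groups. It was at 343, 242, 102 and 140 CPM in positive replicates 1 to 4, and from 93.5 through a median of 131 to 255 CPM in the negative samples. The groups overlapped, and its log2 fold change was 0.47 ± 0.35 (SE), or 0.29 with the hair score as a covariate. Ass1 and Asl, which make arginine from citrulline, had log2 fold changes of -0.42 ± 0.35 and -0.40 ± 0.23 (SE). In the fit that holds the hair score the direction of Ass1 turned, to 0.27, and the value of Asl was -0.03. Ass1 was lowest in negative replicates 1 and 7, at 37.1 and 50.3 CPM, and highest in negative replicate 3, at 177 CPM. Those samples also had the hair scores -0.49, -1.51 and 1.16 in that order. Positive replicates 2 and 3 had hair scores of -1.28 and -1.05, below that of negative replicate 1. Their Ass1 was nonetheless higher than in that sample, at 79.98 and 63.4 CPM. The part of hair content in the Ass1 level was not tested.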
